A study of Mus musculus with 3 samples.

Results

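Among the bone-lining cells (BLCs) that coat the bone surface, 316 of 19482 cells carried a cartilage transcriptome together with transcripts of at least 3 of the genes Sfn, Krt16, Dhrs9 and Tnfaip6, and they are called multi-marker cells here. The BLCs came from the femora, tibias and iliac bones of wild-type mice, were sorted as positive for Alcam and negative for Sca-1, CD45, Ter119 and CD31, and were profiled by droplet single-cell RNA-seq in 3 libraries of 1 group, replicates 1, 2 and 3, with no treatment. The labels give no age and no animal numbers, and they do not say that the libraries came from separate animals. The p-values below rest on how far differences between cell populations varied from library to library, which need not be variation between animals. Multi-marker cells were chosen by their own transcripts. Of 20307 barcodes, the ones kept showed 200 genes or more and had no more than 20% of transcripts from mitochondrial genes. A member then had Col2a1 at 1% or more of its unique molecular identifiers (UMIs, each counting 1 captured transcript), at least 3 of the 4 markers with a UMI, fewer than 3 UMIs of Prkg2 and none of Ptprc. Replicates 1, 2 and 3 held 0, 127 and 189 members. The nearest cells that the rule left out were 5642 other Col2a1-high cells, which met the same limits but showed at most 2 of the markers. A further 2603 cells with at least 3 Prkg2 UMIs, the Prkg2-high cells, served as a second comparison.

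Cartilage is made by chondrocytes, which secrete a matrix of type II collagen, the product of Col2a1, and aggrecan under the control of the transcription factor Sox9. Chondrocytes at a joint surface make lubricin, the product of Prg4, whereas those of the growth plate proliferate in columns and then enlarge, and Prkg2 encodes a kinase needed for that transition. Sfn encodes the 14-3-3 sigma protein, a p53 target known from epithelia, and Krt16 encodes a keratin of stressed and wounded epidermis. Dhrs9 encodes a retinol dehydrogenase, and Tnfaip6 encodes TSG-6, a hyaluronan-binding protein induced by inflammatory cytokines.

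The cartilage label was checked against 11 chondrocyte markers other than Col2a1, which the rule used. All 11 had UMIs in the multi-marker cells of both libraries. In the test described below, against other Col2a1-high cells, Acan (0.29 on the log2 scale) and Sox9 (1.01) were higher and none of the 11 was lower, where 5.03% and 3.66% of all genes tested were called higher and lower. With scaling to total UMIs 1 was higher and 3 were lower. Levels are given in CPM (the UMIs of a gene scaled to a total of 1000000). The epithelial genes that usually accompany Krt16 in skin were scarce. The 10 epithelium markers summed to 56.7 and 60.6 CPM in multi-marker cells and to 52.9 and 53.4 CPM in the other Col2a1-high cells. Cdh1, Trp63, Krt8 and Krt18 were at 0 in replicate 2 and Krt5 was at 0 in replicate 3, and 0 of 8 tested epithelium markers passed the test described below. Leukocyte markers summed to 3.47 and 31.6 CPM in multi-marker cells and to 6.42 and 16.9 CPM in the other cells. Of 6 tested leukocyte markers 1 was higher (median log2 fold change 1.34), namely Tyrobp, with 95.2% of its member UMIs in 1 cell.

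The libraries were unequal. Replicate 1 held 2527 kept cells, of which 7 (0.277%) were Col2a1-high, whereas replicates 2 and 3 held 6725 and 10230, of which 53.5% and 48.6% were. Total depth was 20985636, 79905165 and 69890252 UMIs. The comparisons below therefore rest on replicates 2 and 3. Of the cell barcodes that libraries shared (5, 9 and 28 for the 3 pairs of libraries), none belonged to a member.

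Multi-marker cells made up 3.53% (95% exact binomial interval 2.95 to 4.19) of the Col2a1-high cells of replicate 2 and 3.80% (3.28 to 4.37) of those of replicate 3. In replicate 1, 0 of 7 Col2a1-high cells qualified, for which the same interval reaches 41.0% (42.9% by the limit of 3 counts that a count of 0 allows). The mean over the 3 libraries was 2.44% ± 2.12 (SD, n = 3), and its SD came from the 7 cells of replicate 1. These intervals cover counting error only. The share followed how deeply a cell was sequenced. Among cells with low Prkg2, it went from 1.54% of cells under 3000 UMIs to 9.19% of those with 18000 or more in replicate 2, and from 1.20% to 16.3% in replicate 3, where the deepest class held 8 members among 49 cells. Cells with at least 3000 UMIs were also thinned to 3000, and shallower cells were left out. Of these Col2a1-high cells, 44 of 3332 (1.32%) and 67 of 4270 (1.57%) still qualified. Only the 4 markers were recounted after thinning, and the limits on Col2a1, Prkg2 and Ptprc were applied at full depth. Members had median depths of 12978 and 9334 UMIs, the other Col2a1-high cells 10855 and 7031, and the Prkg2-high cells 19748 and 11943.

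**Figure D1:**
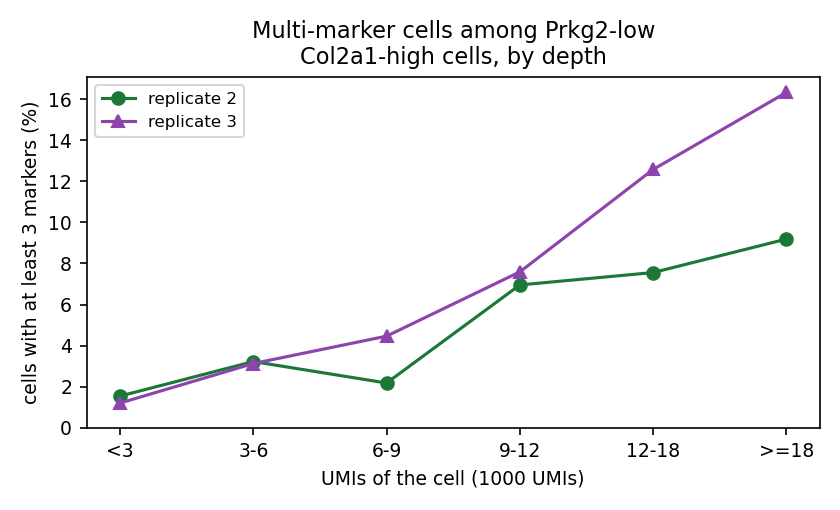
Share of Prkg2-low Col2a1-high cells with at least 3 of the 4 markers (percent, vertical axis) in 6 classes of UMIs per cell (1000 UMIs, horizontal axis), 1 line for each of replicates 2 and 3. The share was 1.54% and 1.20% in the shallowest class and 9.19% and 16.3% in the deepest.

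The number of markers seen in a cell declined without a gap. In replicate 2, 912 cells with low Prkg2 showed none of the markers, 791 showed 1, 402 showed 2, 101 showed 3 and 26 showed all 4. The numbers in replicate 3 were 1644, 1279, 610, 158 and 31. Cells just outside the rule, with 2 markers, were about as deep (median 12763 and 8120 UMIs) as those just inside it with 3 (12677 and 9393 UMIs). Of the 316 members, 57 had all 4 markers, 115 lacked only Krt16, 65 only Sfn, 49 only Dhrs9 and 30 only Tnfaip6. The Col2a1 limit ran through a continuum as well. Members had a median of 2.84% and 2.95% of their UMIs from Col2a1, from 1.00% upwards, and 19 of 127 and 36 of 189 lay between 1% and 1.5%. Just below the limit, at 0.5 to 1% Col2a1, 40 of 718 (5.57%) and 64 of 1257 (5.09%) cells with low Prkg2 and no Ptprc had at least 3 markers. Of the like cells inside the limit, 4.53% and 4.25% had 3 markers and 1.16% and 0.833% all 4. The shares of 3.53% and 3.80% above are of all Col2a1-high cells, Prkg2-high ones included.

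The levels of the 4 markers follow from the rule and are given as a description. Sfn stood at 543 and 552 CPM in the members of replicates 2 and 3, at 79.6 and 97.2 CPM in the other Col2a1-high cells and at 184 and 166 CPM in the Prkg2-high cells. Krt16 stood at 566 and 705 CPM, 91.2 and 98.2 CPM, and 220 and 260 CPM in the same order. Both genes were thus higher in Prkg2-high cells than in the other Col2a1-high cells in each library. Dhrs9 and Tnfaip6 had the opposite order outside the members. Dhrs9 stood at 308 and 275 CPM in members, 83.1 and 87.6 CPM in the other cells and 15.1 and 21.4 CPM in Prkg2-high cells. Tnfaip6 stood at 643 and 708 CPM, 95.1 and 129 CPM, and 47.0 and 66.4 CPM. Free RNA in the droplets may add to such values. In Ptprc-positive cells of low Col2a1 the 4 markers lay between 1.61 and 10.6 CPM in replicates 2 and 3. A UMI of Sfn was seen in 8.62% and 7.03% of these cells (median depth 20099 and 11518 UMIs). It was seen in 16.2% and 14.9% of the other Col2a1-high cells. In the Ptprc-positive cells of replicate 1, a library with 7 Col2a1-high cells, Tnfaip6 stood at 13.2 CPM. Whether Ptprc-positive cells make any of the 4 markers themselves was not tested.

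Il11 and F3, which belong to the working name of these cells but not to the rule, set the multi-marker cells apart less. Il11, an IL-6 family cytokine, stood at 584 and 539 CPM in members, at 197 and 282 CPM in the other Col2a1-high cells and at 409 and 464 CPM in Prkg2-high cells. F3, which encodes tissue factor, the initiator of coagulation, stood at 711 and 933 CPM in members, 585 and 762 CPM in the other cells and 611 and 686 CPM in Prkg2-high cells. F3 was seen in 61.3% and 60.1% of the other Col2a1-high cells, and its member level in replicate 2 was below the level of the other Col2a1-high cells in replicate 3.

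**Figure D2:**
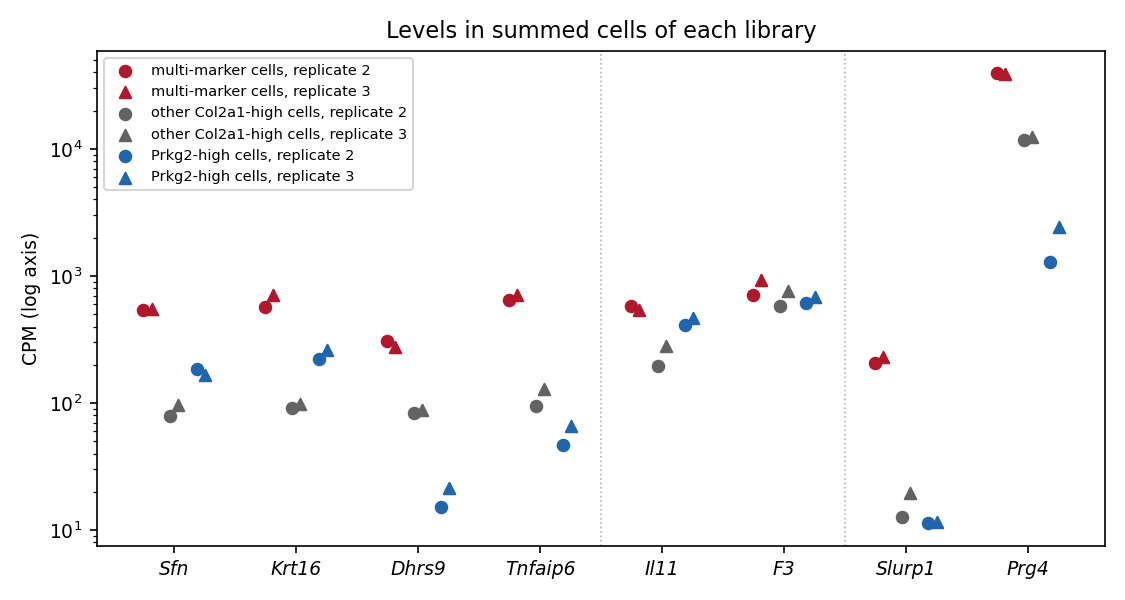
Level (CPM, log axis) of the 4 rule genes, of Il11 and F3, and of Slurp1 and Prg4 in the summed multi-marker, other Col2a1-high and Prkg2-high cells of replicates 2 (circles) and 3 (triangles), 1 point per sum and no error bars. Sfn and Krt16 were next highest in Prkg2-high cells (184 and 166, 220 and 260 CPM), Dhrs9 and Tnfaip6 in the other Col2a1-high cells, and F3 differed least between members and the other Col2a1-high cells.

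The 4 markers did not behave as 1 set. To compare cells at equal depth, each Prkg2-low Col2a1-high cell with at least 3000 UMIs was thinned to 3000. Sfn was then seen in 36.9% and 36.5% of the cells with Krt16 and in 9.55% and 10.8% of the cells without it. Dhrs9 was seen in 37.5% and 33.5% of the cells with Tnfaip6 and in 15.4% and 14% of those without. Between these pairs the differences were smaller, and those with Dhrs9 did not keep their direction. Dhrs9 was seen in 23.1% of the cells with Krt16 against 18.6% without it in replicate 2, but in 17.0% against 17.4% in replicate 3. Sfn was seen in 13.4% of the cells with Dhrs9 against 10.9% without it in replicate 2, and in 11.5% against 13.5% in replicate 3. Tnfaip6 kept a direction with both genes of the other pair. Sfn was seen in 15.9% and 15.7% of the cells with Tnfaip6 and in 10.5% and 12.6% of the others, and Tnfaip6 in 20.8% and 23.1% of the cells with Krt16 and in 15.3% and 16.5% of the others. These shares concern genes of the rule and were not tested. At equal depth the markers thus fell into 2 pairs more than into the 1 chondrocyte state of their working name, and the cells are called by the rule.

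**Figure D3:**
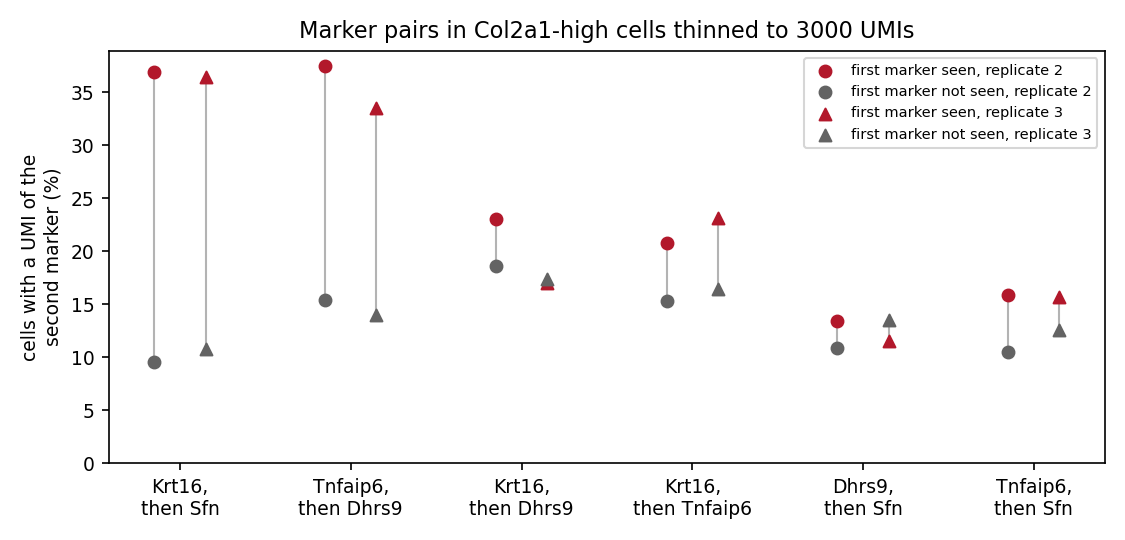
Percent of Prkg2-low Col2a1-high cells, thinned to 3000 UMIs, in which the second marker of each pair was seen (vertical axis), for cells with the first marker (red) and without it (grey), in replicates 2 (circles) and 3 (triangles). The gap is wide for Krt16 with Sfn (36.9% against 9.55% in replicate 2) and for Tnfaip6 with Dhrs9 (37.5% against 15.4%) and narrow for the 4 pairings across them.

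The pairs also differed in the genes they came with. Prg4 stood at 3876 and 5789 CPM in the 52 and 100 cells that had Sfn and Krt16 but neither other marker. It stood at 29502 and 28402 CPM in the 190 and 281 cells that had Dhrs9 and Tnfaip6 only. Cells with none of the markers lay between them, at 9200 and 8117 CPM. Both libraries gave this order. Members showed the same order within the rule: Prg4 stood at 18560 and 22009 CPM in members with Sfn, Krt16 and 1 other marker, at 44144 and 40914 CPM in members with Dhrs9, Tnfaip6 and 1 other, and at 53579 and 62631 CPM in members with all 4. Il11 had the opposite order among cells with 2 markers, at 520 and 697 CPM with Sfn and Krt16 and 194 and 484 CPM with Dhrs9 and Tnfaip6. Creb5 stood at 414 and 393 CPM with Dhrs9 and Tnfaip6 only, against 359 and 337 CPM in all members. In the same order, Erg stood at 210 and 178 against 149 and 137 CPM. Cytl1 stood at 15083 and 15090 against 14619 and 15126 CPM, and Chac1 at 11.2 and 13.0 against 11.6 and 12.1 CPM. These genes were thus about as high or higher in cells that the rule left out. Prg4, Slurp1, Sox9, Trib3, Nes and Cilp were lower there than in all members. Slurp1 had no common order among cells with 2 markers, at 38.1 and 18 CPM with Sfn and Krt16 only and 23.3 and 21.3 CPM with Dhrs9 and Tnfaip6 only. Among members it stood at 73.2 and 133 CPM with Sfn, Krt16 and 1 other, at 145 and 267 CPM with Dhrs9, Tnfaip6 and 1 other, and at 548 and 305 CPM with all 4. Cells with Sfn and Krt16 only were deeper (median 16925 and 10407 UMIs) than those with Dhrs9 and Tnfaip6 only (11733 and 7617 UMIs), and the part of depth in these levels was not tested.

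Genes outside the rule were then compared between the summed counts of members and of the other Col2a1-high cells, with the library as a block (edgeR quasi-likelihood test, Benjamini-Hochberg adjustment, threshold 0.05). The rule genes, Il11, F3 and mitochondrial genes were left out of all counts. Of 16468 genes, 828 (5.03%) were higher in members and 603 (3.66%) lower, 1431 (8.69%) in all. The list counts against the other cells below are to be read beside these shares. The median log2 fold change over all genes was -0.08. Scaling to total UMIs in place of the trimmed mean of M-values moved that median to -0.24 and turned the split to 514 higher and 1309 lower, so directions of small changes depend on the scaling. Against Prkg2-high cells, 3531 genes (21.4%) were called, 1766 (10.7%) higher and 1765 (10.7%) lower, or 1241 and 3648 with total UMIs.

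Slurp1, which encodes a secreted protein of the Ly6 family known from skin, had the largest increase among the genes named by the rule on size. It is a protein-coding gene at chr15:74724318-74728034 on the minus strand (GRCm38). It stood at 207 and 230 CPM in members, 12.6 and 19.4 CPM in the other Col2a1-high cells and 11.3 and 11.6 CPM in Prkg2-high cells (log2 fold change against the other cells 3.93 ± 0.13 SE, adjusted p = 7.48e-10). The member and comparison sums did not overlap. A UMI of Slurp1 was seen in 71 of the 316 members (22.5%), and the richest cell held 9.08% of its member UMIs. The increase lay in part of the members. Slurp1 stood at 403 and 432 CPM in the 69 and 103 members with Prg4 at 1% of UMIs or more. In the 58 and 86 members below that, Slurp1 stood at 28.7 and 11.0 CPM. At 3000 UMIs, 16.3% and 17.7% of members had it against 1.95% and 2.43% of the other cells. Slurp1 went up with each marker, from 32.2 and 37.4 CPM in cells with 2 markers to 121 and 214 CPM with 3.

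Nes, which encodes the intermediate filament nestin, stood at 70.6 and 89.6 CPM in members and 11.5 and 15.8 CPM in the other cells (2.71 ± 0.15, adjusted p = 2.08e-07). It was seen in 124 members (39.2%). Apobec2, of the cytidine deaminase family and known from muscle, stood at 45.7 and 56.4 CPM against 6.38 and 6.69 CPM (3.12). Mmp28, the matrix metalloproteinase epilysin, stood at 34.1 and 34.2 CPM against 5.73 and 7.33 CPM (2.55). These genes were also higher in members than in Prkg2-high cells, by 4.17, 3.28 and 2.84 on the log2 scale.

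Other named genes that rose were Nipal1, a magnesium transporter gene (2.33), Pdcd1, which encodes the receptor PD-1 (2.03), Cd14, a co-receptor for bacterial lipopolysaccharide (1.96), H2-Ab1, a class II histocompatibility gene (1.93), and Ckb, the brain-type creatine kinase gene (1.93). Ckb was the most widespread of them, seen in 204 members, at 292 and 236 CPM against 74.5 and 80.0 CPM. Cd14, H2-Ab1 and Pdcd1 are better known from leukocytes. Ptprc was 0 in members by the rule, and leukocyte markers are given above; Cd14 UMIs were spread over 123 members and its richest cell held 16.1%. Mvd, a gene of cholesterol synthesis, stood at 50.3 and 50.6 CPM against 14.4 and 17.1 CPM (1.84), and Acss2, which makes acetyl-CoA from acetate, at 18.5 and 28.5 CPM against 6.29 and 6.97 CPM (1.99). Elane, the neutrophil elastase gene, met the rule at 2.74 (adjusted p = 0.021), but 96.8% of its member UMIs came from 1 cell of replicate 3. That cell held 441 of the 444 granulocyte UMIs (Mpo, Elane, Ctsg and Ms4a3) among members of that library. Without cells that had a granulocyte UMI the fold change of Elane was -0.00021.

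Prg4, the lubricin gene (chr1:150449412-150466165, minus strand), was by far the most abundant of the 15 genes named for their increase. It stood at 39352 and 38509 CPM in members, 11836 and 12385 CPM in the other Col2a1-high cells and 1286 and 2430 CPM in Prkg2-high cells (1.85 ± 0.16, adjusted p = 5.74e-06, against the other cells). In Ptprc-positive cells of low Col2a1 it stood at 600 and 2229 CPM, so some of the lowest values lie in the range of those cells, which may include free RNA. Prg4 did not mark every member. It reached 1% of the cell's UMIs in 69 of 127 (54.3%) and 103 of 189 (54.5%) members, in 21.5% and 22.2% of the other Col2a1-high cells and in 2.06% and 3.31% of Prkg2-high cells. The middle quartiles of members ran from 0.137% to 7.30% of UMIs in replicate 2 and from 0.204% to 6.18% in replicate 3.

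Of 10 tested superficial-zone genes, a list that includes Prg4, 6 were higher and 0 lower in members (median log2 fold change 0.64, against -0.08 over all genes). Cilp, a cartilage matrix protein gene, stood at 1292 and 1373 CPM against 535 and 636 CPM (1.36). It stood at 2371 and 2513 CPM in members with Prg4 at 1% of UMIs or more. In members below that, Cilp stood at 314 and 139 CPM, under the level of the other cells. Creb5, a transcription factor needed for Prg4 in the joint surface, stood at 359 and 337 CPM against 167 and 170 CPM (1.21), and Abi3bp at 708 and 581 CPM against 396 and 391 CPM (0.87). Creb5 stood at 561 and 471 CPM in members with Prg4 at 1% of UMIs or more. In members below that it stood at 175 and 191 CPM, near the level of the other cells. Erg (0.84) and Cilp2 (0.44) completed the 6. Erg stood at 173 and 181 CPM in members with Prg4 at 1% or more and at 127 and 88.9 CPM in members below that. In the other Col2a1-high cells Erg stood at 87.2 and 90.2 CPM. Tspan15, Dkk3, Clu (0.20) and Thbs4 (0.01) of the same list did not pass. Against Prkg2-high cells 9 of the 10 were higher (median 2.95). A comparison of the cells with Prg4 at 1% of UMIs or more (69 and 103 members, 452 and 784 others), added after the data were seen, called 0 of 9 superficial-zone genes. Of all 12627 genes tested there, 316 were higher and 120 lower. Both sides were chosen by Prg4, so this comparison cannot show whether Prg4, or genes that follow it, differ. The fold change of Prg4 there was 0.54 (adjusted p = 0.15), and Slurp1 (2.96) and Nes (1.63) were past the threshold.

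Other zone lists had calls in both directions or none higher. Of the resting-zone list 2 of 8 were higher and 3 lower (1 and 5 under total UMIs), with the Wnt inhibitor gene Wif1 at 0.43, the BMP inhibitor gene Grem1 at 0.99 and Pthlh, the parathyroid hormone-related ligand of the growth plate, at -1.65. Of the columnar list 0 of 7 were higher and 2 lower (Capn6 at -0.90, Matn3 at -0.37). Of the hypertrophic list 3 of 13 were higher and 2 lower (3 and 3 under total UMIs). Col10a1, the collagen gene of enlarged chondrocytes, stood at 695 and 479 CPM in members, 214 and 279 CPM in the other cells and 61.7 and 55.0 CPM in Prkg2-high cells (1.40 ± 0.16, adjusted p = 6.47e-05), while Runx2, a driver of that fate, was lower (-0.77). Mmp13 and Ihh, further genes of enlarged chondrocytes, did not pass.

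Among 17 cartilage transcription factors 6 were higher and 3 lower. Sox9 stood at 2456 and 2514 CPM in members, 1281 and 1481 CPM in the other cells and 1489 and 1656 CPM in Prkg2-high cells (1.01 ± 0.07, adjusted p = 1.37e-06). Sox9 also increased step by step with the markers, from 901 and 1118 CPM with none to 3028 and 2589 CPM with all 4. Runx3 was lower (-1.13), and Foxa3 was higher (0.93). Of 22 cartilage matrix genes 3 rose and 3 fell (median 0.02), or 2 and 8 with total UMIs (median -0.14). Against Prkg2-high cells 5 were higher and 15 lower (median -0.45). Cytl1, a secreted chondrocyte protein gene, stood at 14619 and 15126 CPM against 7878 and 8439 CPM (1.03), and Chad rose by 0.45, whereas Matn4 (-0.74) and Ucma (-0.57) fell. The Cytl1 increase lay in members with Prg4 at 1% of UMIs or more, at 24850 and 23963 CPM. In members below that, Cytl1 stood at 5347 and 5562 CPM, under the level of the other Col2a1-high cells.

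**Figure D4:**
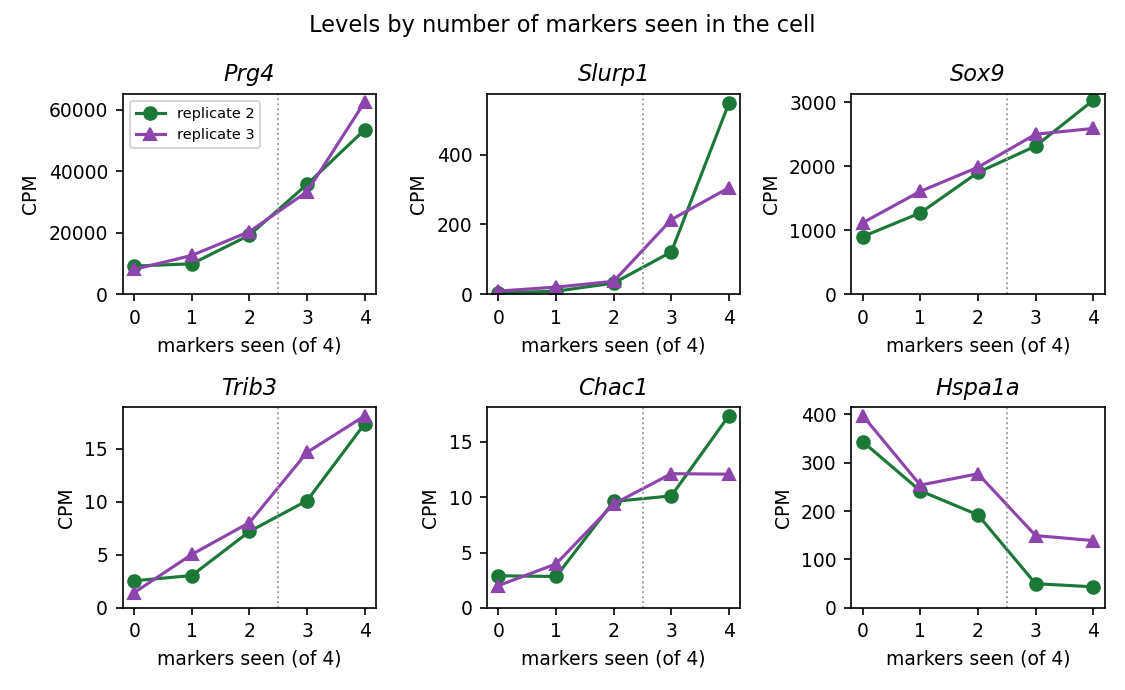
Level (CPM, vertical axes from 0) of Prg4, Slurp1, Sox9, Trib3, Chac1 and Hspa1a in Prkg2-low Col2a1-high cells with 0 to 4 of the markers (horizontal axes), in replicates 2 (circles) and 3 (triangles), with the dotted line at the limit of the rule. Sox9 rose from 901 and 1118 to 3028 and 2589 CPM, and Hspa1a was 343 and 397 CPM with none and 43.5 and 139 CPM with all 4.

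Part of the genes of the unfolded protein and integrated stress responses rose. Cells under amino acid shortage or with misfolded protein in the endoplasmic reticulum make more of the transcription factor Atf4, which switches on genes for amino acid supply and for feedback. Of the 15 genes tested, 8 were higher and 0 lower in members, where 5.03% and 3.66% of all genes tested were. The median log2 fold change of the list was 0.64. With total UMIs 8 of the 15 were higher and 1 lower. Against other Col2a1-high cells matched in depth the counts were 8 and 0, among cells with Prg4 at 1% of UMIs or more 7 and 0, and against Prkg2-high cells 10 and 0. Over all genes the counts were 573 and 400 of 10075 at matched depth and 316 and 120 of 12627 among the cells with Prg4. Against Prkg2-high cells 10.7% of all genes were higher and 10.7% lower.

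Trib3, a pseudokinase gene of the feedback arm, stood at 11.6 and 15.3 CPM in members, 3.83 and 4.16 CPM in the other Col2a1-high cells and 6.60 and 6.96 CPM in Prkg2-high cells (1.91 ± 0.26, adjusted p = 0.00034). It rested on 20 and 29 member UMIs. Chac1, which degrades glutathione, stood at 11.6 and 12.1 CPM against 4.44 and 4.28 CPM (1.60). Sesn2, an amino acid sensor gene, stood at 32.4 and 41.6 CPM against 17.8 and 17.6 CPM (1.23), and Asns, which makes asparagine, at 21.4 and 26.9 CPM against 11.0 and 14 CPM (1.11). Asns stood at 33.4 and 34.5 CPM in Prkg2-high cells and did not pass against them (-0.27, adjusted p = 0.30). Atf4 itself rose by 0.87, from 333 and 350 CPM in the other cells to 551 and 566 CPM. The chaperone genes of the list, Hspa5 (-0.02), Hsp90b1 (0.13) and Dnajb9 (-0.41), did not pass the test, nor did Ddit3 (0.15), Creb3l2 (0.16), Ddit4 (-0.28) and Vldlr (0.47).

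Promoters of 4 of the 8 genes called in this list, Chac1, Trib3, Asns and Herpud1, held the core of the C/EBP-ATF response element, to which Atf4 dimers bind. They are printed because each of these genes was called higher in members than in the other Col2a1-high cells. The motif searched was TGATGNAA on both strands, from 250 bases before to 50 after the start (RefSeq, GRCm38.p6), and it was chosen after the levels had been seen. It occurred in 3.97% of all 32851 promoters (4.51% of genes) and in 340 of 12128 (2.80%) tested genes with a promoter. In the list it occurred in 4 of 8 of the called genes, or 5 of all 15 genes with Vldlr. The list was written from known genes of these responses, so its matches say nothing about the cells. The motif occurred in 33 of 661 (4.99%) genes called higher with a promoter in the table and in 18 of 451 (3.99%) called lower. A match is a description of the letters and not of binding. The windows run along the strand of the gene. Capitals mark the motif on either strand, at 193 bases before the start in Chac1 (chr2:119350992-119351291, plus strand), at 14 bases after it in Trib3 (chr2:152344011-152344310, minus strand), 23 bases before it in Asns (chr6:7693160-7693459, minus strand) and 112 before it in Herpud1 (chr8:94386179-94386478, plus strand).
Chac1: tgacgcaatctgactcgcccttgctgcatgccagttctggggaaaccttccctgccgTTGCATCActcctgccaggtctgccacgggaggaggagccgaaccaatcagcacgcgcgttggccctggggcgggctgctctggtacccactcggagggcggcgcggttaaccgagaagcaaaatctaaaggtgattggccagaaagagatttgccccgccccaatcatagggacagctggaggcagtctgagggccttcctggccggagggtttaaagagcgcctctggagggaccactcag
Trib3: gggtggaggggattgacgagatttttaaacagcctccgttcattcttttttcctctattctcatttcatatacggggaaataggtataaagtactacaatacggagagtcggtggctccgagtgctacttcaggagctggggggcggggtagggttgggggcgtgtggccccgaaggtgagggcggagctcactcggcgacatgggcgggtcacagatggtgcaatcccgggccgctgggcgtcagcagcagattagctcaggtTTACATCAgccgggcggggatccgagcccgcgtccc
Asns: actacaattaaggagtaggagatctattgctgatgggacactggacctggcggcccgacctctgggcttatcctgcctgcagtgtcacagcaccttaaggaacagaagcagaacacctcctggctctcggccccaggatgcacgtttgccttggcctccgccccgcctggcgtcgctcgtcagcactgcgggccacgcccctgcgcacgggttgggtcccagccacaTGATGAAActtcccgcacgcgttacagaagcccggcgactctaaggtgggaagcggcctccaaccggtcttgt
Herpud1: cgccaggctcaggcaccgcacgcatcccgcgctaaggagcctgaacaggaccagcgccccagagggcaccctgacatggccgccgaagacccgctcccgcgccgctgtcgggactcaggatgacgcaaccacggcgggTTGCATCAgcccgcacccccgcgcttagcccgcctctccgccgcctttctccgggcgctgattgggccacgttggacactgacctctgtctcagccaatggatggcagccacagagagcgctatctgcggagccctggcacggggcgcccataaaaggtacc

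The same 300-base windows of the rule genes are shown as a description. Of the rule genes with a promoter in the table, Dhrs9 (chr2:69380212-69380511, plus strand) and Tnfaip6 (chr2:52037863-52038162, plus strand) held TGANTCA, the site known for AP-1 factors such as Fos and Jun. Whether the site has a part in their levels was not tested. This motif, searched on both strands, lies in 7.81% of all promoters. Counted by gene, it lies in 8.97% of all genes with a promoter and 6.79% of the genes tested. Of genes called higher 8.93% had it and of those called lower 7.54%. Among the named genes with a promoter, 0 of 9 higher and 1 of 10 lower genes had it. Sfn (chr4:133602119-133602418, minus strand) did not hold it and held TGATGNAA. Krt16 (chr11:100246091-100248902, minus strand) was not matched in the promoter table. Capitals again mark the motif.
Dhrs9: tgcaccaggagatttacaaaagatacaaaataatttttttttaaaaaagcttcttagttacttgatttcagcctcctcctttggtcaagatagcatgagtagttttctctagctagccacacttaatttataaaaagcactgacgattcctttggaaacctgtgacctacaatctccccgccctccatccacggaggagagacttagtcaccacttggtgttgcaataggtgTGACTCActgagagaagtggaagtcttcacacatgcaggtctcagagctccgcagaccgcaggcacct
Tnfaip6: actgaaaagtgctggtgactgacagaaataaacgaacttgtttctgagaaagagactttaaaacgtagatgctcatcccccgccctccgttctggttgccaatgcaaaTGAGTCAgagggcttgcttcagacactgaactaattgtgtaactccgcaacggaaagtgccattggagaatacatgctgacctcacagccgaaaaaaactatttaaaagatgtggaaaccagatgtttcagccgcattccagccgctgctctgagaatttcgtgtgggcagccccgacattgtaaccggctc
Sfn: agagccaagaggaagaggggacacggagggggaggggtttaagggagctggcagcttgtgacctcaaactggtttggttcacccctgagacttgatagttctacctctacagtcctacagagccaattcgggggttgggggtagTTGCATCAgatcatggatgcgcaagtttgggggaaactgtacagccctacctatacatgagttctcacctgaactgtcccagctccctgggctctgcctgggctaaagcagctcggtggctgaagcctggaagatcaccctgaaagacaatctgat

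Immediate-early and heat shock genes, which respond within minutes to signals and to heat or tissue digestion, differed in both directions. Of 30 tested genes 6 were higher in members, 12 were lower and 12 did not pass (median -0.21), or 6 and 17 with total UMIs. Hspa1a, an inducible heat shock protein gene, stood at 48.6 and 148 CPM in members, 268 and 319 CPM in the other Col2a1-high cells and 101 and 180 CPM in Prkg2-high cells (-1.49 ± 0.19, adjusted p = 0.00019). The near-identical Hspa1b followed it (-1.48), and reads of this pair may be split between them. The exceptions included the small heat shock protein gene Hspb1, at 417 and 1267 CPM against 241 and 363 CPM (1.54), and the transcription factor gene Egr3 (1.14). Hspa1a and Hspb1 were each higher in the members of replicate 3 than in those of replicate 2. Against Prkg2-high cells the list moved the other way, with 15 genes higher and 6 lower.

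Genes of the p53 response, to which Sfn belongs, were counted without it. Of 18 tested targets other than Sfn, 6 were higher and 0 lower (median 0.14), or 5 and 0 with total UMIs, and against Prkg2-high cells 5 were higher and 3 lower. Over all genes tested 5.03% were higher and 3.66% lower, and against Prkg2-high cells 10.7% and 10.7%. Phlda3, an Akt inhibitor gene, stood at 47.4 and 51.1 CPM against 15.3 and 17.8 CPM (1.73), Cdkn1a, the p21 cell cycle inhibitor gene, at 870 and 867 CPM against 431 and 510 CPM (1.05), and the death receptor gene Tnfrsf10b rose by 0.98. Phlda3 stood at 71.8 and 83.1 CPM in members with Prg4 at 1% of UMIs or more and at 25.4 and 16.5 CPM in members below that. Among cells with Prg4 at 1% of UMIs or more, 4 of 17 tested targets were higher and 0 lower (median 0.01). Over all 12627 genes tested there 316 were higher and 120 lower. Sesn2 belongs to this list too. Bax (-0.06), Ccng1 (-0.16) and Zmat3 (-0.57), which p53 also controls, did not pass. Of 20 cell cycle genes 1 was higher (Ccnd2, 0.56) and 1 lower (Ccnd1, -0.48), near the shares over all genes.

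**Figure D5:**
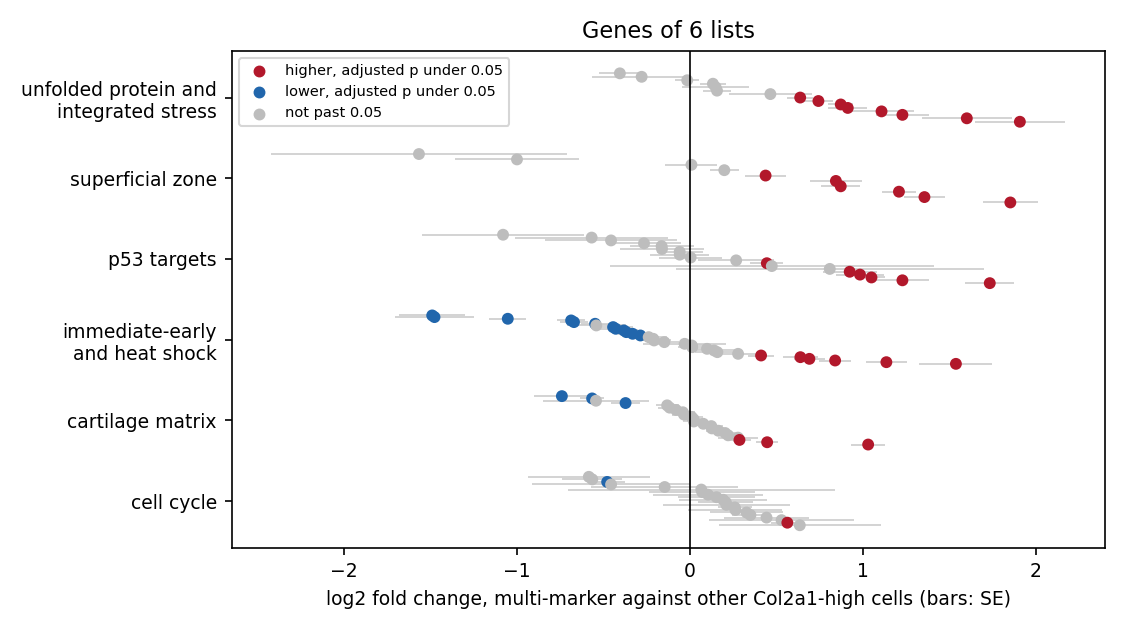
Log2 fold change (horizontal axis, bars SE of the edgeR fit) of members against other Col2a1-high cells for each tested gene of 6 lists, with genes that passed adjusted p under 0.05 in red (higher) or blue (lower) and the rest in grey. The stress response list has 8 red and 0 blue genes of 15, the immediate-early and heat shock list 6 and 12 of 30.

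Lists related to the markers themselves were also counted. Beside these lists and the families below, 5.03% of all genes tested were higher and 3.66% lower. Under total UMIs 514 and 1309 of 16468 were. Of 12 tested keratins and epithelial genes (median 0.94) only Perp, a desmosomal gene and p53 target, rose (0.92), while Krt14 and Krt19, with 1 member UMI each in replicate 2, did not pass. Of the 6 tested 14-3-3 genes besides Sfn, Ywhah (0.64) and Ywhaq (0.46) rose. Of 11 hyaluronan genes the synthase genes Has1 (0.55) and Has2 (0.48) rose and Cemip (-0.43) and Ptx3 (-2.55, on 4 member UMIs) fell, with 1 and 2 under total UMIs. Of 11 tested retinoid genes 4 rose and 1 fell, Cyp26b1 (0.70) and Aldh1a1 (0.68) among the former and Rdh10 (-0.94) the latter, with 2 and 2 under total UMIs.

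Secreted ligands and their regulators were counted by family. Of the 14 tested genes of the IL-6 family and its signalling, the ligand genes Clcf1 (72.3 and 81.7 CPM against 20.3 and 29.2 CPM, 1.80) and Lif (0.78) rose, whereas Socs3 (-1.19) and Cebpd (-1.06), which that pathway induces, fell (1 and 5 under total UMIs). Of 27 BMP, FGF, Wnt and hedgehog genes 7 rose, 3 fell and 17 did not pass (7 and 5 under total UMIs). Bmp2, a bone morphogenetic protein gene, stood at 384 and 511 CPM against 175 and 235 CPM (1.29), and the BMP inhibitor gene Chrdl2 at 85.6 and 60.1 CPM against 22.8 and 24.9 CPM (1.76). Igf1 was lower (-1.86) on 3 and 4 member UMIs. Inhba, which encodes the activin A subunit, stood at 521 and 539 CPM against 176 and 184 CPM in the list of TGF-beta and YAP responses, where 4 of 16 rose and 3 fell (4 and 6 under total UMIs) and Tagln (-1.75), a contractile gene, fell most. Among 13 tested genes of the EGF family and its feedback 4 rose and 1 fell, with Phlda1 at 2376 and 2499 CPM against 1090 and 1283 CPM (1.20) and the ligand gene Hbegf at 1726 and 1782 CPM against 927 and 1053 CPM (0.99).

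Of 15 metalloproteinase genes and inhibitors 5 rose and 1 fell (3 and 4 under total UMIs), with Mmp3 (stromelysin) at 1.28, Mmp10 at 1.10 with 47.2% of its member UMIs in 1 cell, the inhibitor gene Timp3 at 0.77 and Mmp2 at -0.76. Among 11 coagulation and plasminogen genes besides F3, 5 rose and 0 fell, led by the protease inhibitor gene Serpine2 (639 and 792 CPM against 419 and 412 CPM, 0.94) and S100a10 (0.78). Of 20 cytoskeleton and adhesion genes 7 rose and 1 fell, with the fibronectin receptor gene Itga5 at 1.13 and Actn1 at -0.60. Of 18 glycolysis and hypoxia genes 7 rose and 2 fell, with Ndrg1 at 1.15 and Slc2a1, the glucose transporter gene, at 0.75.

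The named genes with the largest decreases were mostly rare in members. Hbb-bs, a beta-globin gene, stood at 0.579 and 5.27 CPM in members against 16.7 and 70.7 CPM in the other cells (-3.73 ± 0.30, adjusted p = 3.22e-06), and 3 of 4 tested erythroid markers, Hbb-bs among them, fell. The erythroid list summed to 1.16 and 9.48 CPM in members, 30.3 and 119 CPM in the other cells and 4.73 and 9.23 CPM in Prkg2-high cells. Alas2 was at 0 in members of both libraries. Whether these transcripts came from other cells in the droplets was not tested. Msmp, a secreted protein gene, stood at 159 and 105 CPM against 733 and 436 CPM (-1.97), but its fold change was -0.37 (adjusted p = 0.58) against cells of matched depth. Rgs6, a regulator of G protein signalling (-2.03), Pappa2, a protease of IGF-binding proteins (-2.39), and Apod, a lipid carrier gene (-2.03), were lower among all Col2a1-high cells and not among cells with Prg4 at 1% of UMIs or more, where they stood at 0.50, 0.22 and 0.35 and did not pass. Pappa2 rested on 1 member UMI in replicate 2 and 19 in replicate 3. Dbp, a clock gene, fell by 2.31, Tnc, the tenascin C gene, by 2.19, Fam13c by 1.95, the calcium channel gene Cacna1e by 1.89 and Itgbl1 by 1.87 on the log2 scale. Tnc was highest in Prkg2-high cells, at 83.9 and 99.4 CPM against 2.89 and 5.80 CPM in members.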

How the data were processed

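Per the labels, 3 libraries of wild-type Alcam+Sca-1- BLCs formed 1 group. The authors aligned reads to mm10 and the deposited tables hold their raw UMI counts per gene and cell from Cell Ranger 7.1.0, without normalization. Members and gene lists (38) were chosen with earlier results of these data known. Counts were summed per library and population where at least 10 cells were present, which gave 6 sums (3 populations in replicates 2 and 3) and left replicate 1 out of the tests. edgeR 4.0.16 (R 4.3.3) fitted them with filterByExpr, TMM scaling and the library as a block, because populations of 1 library were captured together. p-values were adjusted over all genes tested. CPM is UMIs over all UMIs of the summed cells. Named genes were, among those past 0.05 with at least 20 CPM in the higher population and 1 direction in both libraries, the 15 with the largest increase and the 10 with the largest decrease, and in each list up to 4 called genes with the largest change, with others named to complete a count. Scrublet (scanpy 1.11.5) marked 9 and 28 members among the highest scores, and doublets were removed only in an alternative, because its automatic threshold marked 1 and 0 cells in replicates 2 and 3. Alternatives were DESeq2 1.42.0, other scalings, filters, comparison cells and member limits. How reads shared by near-identical genes (keratins, globins, Hspa1a and Hspa1b) were counted is not given in the sources used here. Gene positions are from GENCODE M21.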

Additional observations from a re-analysis of the deposited data

Results flagged for a closer look

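Cells with UMIs of at least 3 of the 4 markers were also found where Col2a1 lay under 1% of UMIs, outside the compared populations and above the limit that a count of 0 allows. Among Col2a1-low cells with low Prkg2 and no Ptprc they were 14 of 2335 (0.60%) in replicate 1, 102 of 2919 (3.49%) in replicate 2 and 150 of 4968 (3.02%) in replicate 3. The median depths of these Col2a1-low cells were 5426, 6867 and 4412 UMIs. The shares of all Col2a1-high cells above include Prkg2-high cells and are not like these. In replicates 2 and 3, 40 and 64 of the cells with at least 3 markers had Col2a1 at 0.5 to 1% of UMIs. Their part in the results above was not tested.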

How the results depend on the processing

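The mean share of multi-marker cells was 15.02% with at least 2 markers required, and 1.77% to 3.66% without 1 replicate. Its other alternatives (0.449% with all 4 markers, 0.963% at 3000 UMIs, 3.85% with no limit on Prkg2) stayed within the SD of 2.12, which came from replicate 1 and its 7 cells. Against the other Col2a1-high cells, 1431 genes were called, and 618 with members showing all 4 markers, 952 with only the compared populations in the fit, 2492 against cells with 0 markers and 436 among cells with Prg4 at 1% of UMIs or more, an alternative added after the data were seen, as were total UMIs and the removal of granulocyte UMIs. DESeq2 called 1150 and no filter on low counts 1958. Against Prkg2-high cells, 3531 genes were called and 1474 with all 4 markers. With no replicate block the counts were 1116 and 3277, and Elane, Hbb-bs, Dbp and Tnc lost the threshold. Fold changes turned sign for Elane with all 4 markers (-2.02) and without granulocyte UMIs (-0.00021), and for Pappa2 (0.22), Rgs6 (0.50) and Apod (0.35) among cells with Prg4 at 1% of UMIs or more. The fits hold no sum of replicate 1, so the counts without it were 1431 and 3531 as before. Without replicate 2 or 3 no residual degrees of freedom remained, so no count was made. With 2 libraries, only changes larger than the variation of population differences between them could be called, and genes on a few member UMIs are imprecise.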
